A study of Mus musculus with 12 samples.

Results

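The uroplakins Upk1a, Upk1b, Upk2 and Upk3a were examined in mouse kidney together with Psca, Trp63, Foxa1 and Krt5, other genes known from urothelium. The 8 genes were taken by symbol from a count table of 39171 genes. The kidneys came from 12 males aged up to 3 months, and RNA of each mouse made 1 library. There were 4 sick mice homozygous for the M743T knock-in allele of Gne, 4 healthy mice of the same knock-in genotype, and 4 wild-type mice, whose phenotype is also given as healthy. Gne encodes the enzyme that opens sialic acid synthesis. The sick and healthy knock-in mice carry the same allele on both chromosomes and are separated by phenotype alone. The signs that class a mouse as sick were not given in the sources used here. Gene counts cannot show the substitution itself, so they do not check the genotype labels.

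Urothelium is the lining of the urinary tract and covers the renal pelvis and the papilla inside the kidney. Its surface umbrella cells carry rigid plaques of uroplakins, in which the tetraspanin Upk1a pairs with Upk2 and the tetraspanin Upk1b pairs with Upk3a. Beneath them lie intermediate cells and basal cells, and basal cells are marked by the keratin Krt5 and the transcription factor Trp63. Foxa1 is a forkhead transcription factor of urothelial differentiation. Psca is a small surface protein of the Ly6 family found on urothelium and on other epithelia. In RNA from a whole organ, fewer cells of a type and less RNA per cell cannot be told apart. The share of pelvis or papilla in each sample was not given in the sources used here.

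In the sick mice all 8 genes stood above all 4 wild-type libraries, at 12-fold (Trp63) to 51.7-fold (Psca) higher, and 22.7% of all genes tested stood apart in this way. None of the 8 passed the test in healthy knock-in mice set against wild-type, where 0.308% of all genes were called higher. Healthy mouse 3 held each of the 8 genes at a level that reached into the sick range, and the other 3 healthy mice lay below every sick mouse for all 8. With that library included, 3 of the 8 genes passed the test in sick against healthy knock-in mice, where 24.5% of all genes were called higher. Without it all 8 passed, but it was the highest of its group for all 8, and no share of all genes is given for that fit. Of the 8, 7 reached the count filter only with the sick libraries, so their calls in sick mice could go in one direction only. The unit is CPM, each count divided by its library's TMM-scaled total and put on a common scale. Tests are edgeR quasi-likelihood tests with p-values adjusted over 15589 genes by the Benjamini-Hochberg method, at a threshold of 0.05.

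Total counts were 10605546 to 22633684 in sick, 18191087 to 21925419 in healthy knock-in and 13189478 to 19493856 in wild-type libraries. Each library was kidney by the proximal tubule marker Slc34a1, a phosphate carrier, at 435 to 1116 CPM in sick, 4339 to 7203 CPM in healthy knock-in and 4927 to 6121 CPM in wild-type mice. Libraries of a group are separate mice per the labels. Over all genes, wild-type library 2 stood apart from the other 3 wild-type libraries, at a chi-square per gene of 174 to 211.9 in its pairs, against 12.69 to 31.68 in the pairs of the others.

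The 8 genes lie on 5 mouse chromosomes. On GRCm38, Upk1a is at chr7:30603092-30612847 on the minus strand, and Upk2 at chr9:44452715-44454976 on the minus strand. Foxa1 is at chr12:57540628-57546916 on the minus strand. Chromosome 15 holds Psca at chr15:74714839-74717069 and Upk3a at chr15:85017141-85022547, both on the plus strand, and Krt5 at chr15:101707070-101712898 on the minus strand. Chromosome 16 holds Trp63 at chr16:25683763-25892102 on the plus strand and Upk1b at chr16:38773184-38800328 on the minus strand. Exons of Krt5 overlap a predicted microRNA gene on the opposite strand, and no exon of the other 7 overlaps another gene. Of the 50-base stretches in the Krt5 transcripts, 8.52% also occur in Krt6a, Krt6b or 2 predicted genes, so reads of Krt5 could in part be split with these copies. No such stretch was shared for the other 7 genes.

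Promoter windows of 300 bases around the RefSeq transcript start, most of it upstream, were taken from the RefSeq table of GRCm38.p6, which matched 4 of the 8 genes. All 4 are shown, since these genes moved together across the 12 mice. They are Upk1a and Upk3a, from different plaque pairs, the transcription factor Foxa1 and the basal keratin Krt5. Capitals mark matches, on either strand, to the forkhead motif TGTTTAC, the GATA motif AGATAA and the GC box GGGCGG. The Upk1a window is chr7:30612685-30612984 on the minus strand, the Upk3a window chr15:85016891-85017190 on the plus strand, the Foxa1 window chr12:57546062-57546361 on the minus strand, and the Krt5 window chr15:101712856-101713155 on the minus strand.
Upk1a: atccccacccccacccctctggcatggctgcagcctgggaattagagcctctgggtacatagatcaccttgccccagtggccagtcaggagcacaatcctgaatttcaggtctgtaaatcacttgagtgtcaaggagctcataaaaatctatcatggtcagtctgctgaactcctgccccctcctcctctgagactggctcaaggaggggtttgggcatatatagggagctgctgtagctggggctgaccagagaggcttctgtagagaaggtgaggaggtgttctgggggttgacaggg
Upk3a: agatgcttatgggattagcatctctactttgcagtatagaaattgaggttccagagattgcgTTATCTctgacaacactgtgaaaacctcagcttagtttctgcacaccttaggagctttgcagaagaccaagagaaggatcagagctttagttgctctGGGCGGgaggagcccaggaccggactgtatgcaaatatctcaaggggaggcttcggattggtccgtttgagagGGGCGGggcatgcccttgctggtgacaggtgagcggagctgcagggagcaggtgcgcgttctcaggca
Foxa1: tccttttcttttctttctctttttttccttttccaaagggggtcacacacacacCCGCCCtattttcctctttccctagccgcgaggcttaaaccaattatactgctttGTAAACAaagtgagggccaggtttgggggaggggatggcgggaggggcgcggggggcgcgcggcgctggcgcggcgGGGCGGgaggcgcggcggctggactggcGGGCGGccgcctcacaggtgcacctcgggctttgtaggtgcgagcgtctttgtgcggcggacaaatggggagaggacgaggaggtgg
Krt5: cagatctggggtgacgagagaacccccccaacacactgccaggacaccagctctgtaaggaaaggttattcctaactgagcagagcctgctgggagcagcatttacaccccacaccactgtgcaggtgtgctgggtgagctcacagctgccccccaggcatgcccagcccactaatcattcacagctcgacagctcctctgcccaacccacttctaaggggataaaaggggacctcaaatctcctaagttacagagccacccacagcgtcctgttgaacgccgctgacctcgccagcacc
The forkhead motif occurred once, in the Foxa1 promoter, starting at -141 from the transcript start, and 3.66% of 32544 promoters hold it. The GATA motif occurred once, in the Upk3a promoter at -188, and 11.2% of promoters hold it. The GC box occurred in Upk3a at -91 and -18 and in Foxa1 at -196, -65 and -37, and 35.9% of promoters hold it. None of the marked matches overlap. The Upk1a and Krt5 promoters held none of these 3 motifs. None of the 4 held the grainyhead motif AACCNGTT (2.09% of promoters), the AP-1 motif TGANTCA (7.79%), TATAAA (13.6%) or the direct repeat of PPAR (0.0399%). These matches describe the letters of the windows.

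The plaque pair of Upk1a and Upk2 was the first examined. Upk1a had 4.66, 11.8, 11.1 and 47.9 CPM in sick mice 1 to 4, 0.318, 1.73, 18.5 and 0.568 CPM in healthy knock-in mice 1 to 4, and 0.485, 2.12, 0.607 and 0.457 CPM in wild-type mice 1 to 4. Sick mouse 4 was highest, healthy mouse 3 came next above the other 3 sick mice, and every wild-type mouse lay below every sick mouse. Upk2, its partner in the plaque, had 1.54, 3.05, 3.30 and 14.5 CPM in sick mice, 0, 0.420, 9.90 and 0 CPM in healthy knock-in mice, and 0.162, 0.295, 0.0867 and 0 CPM in wild-type mice. Its order was the same, and 2 healthy mice and 1 wild-type mouse held no count at all.

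Upk1b had 7.01, 18.0, 15.4 and 56.1 CPM in sick mice, 0.699, 0.525, 16.0 and 0.397 CPM in healthy knock-in mice, and 0.405, 1.0, 0.260 and 0.783 CPM in wild-type mice. Healthy mouse 3 stood between the sick mice, and the other healthy mice lay among the wild-type mice. Upk3a, whose product pairs with Upk1b, had 5.88, 8.47, 9.82 and 38.2 CPM in sick mice, 0.254, 1.42, 12.4 and 0.0568 CPM in healthy knock-in mice, and 0, 0.884, 0.260 and 0.130 CPM in wild-type mice. Healthy mouse 3 again exceeded 3 of the 4 sick mice, and healthy mouse 2 exceeded all wild-type mice. Healthy mouse 2 lay above healthy mice 1 and 4 for Upk1a, Upk2 and Upk3a, and below healthy mouse 1 for Upk1b.

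Psca had 6.12, 18.5, 24.02 and 50.5 CPM in sick mice, 0, 1.84, 14.0 and 0.227 CPM in healthy knock-in mice, and 0.485, 0.884, 0.260 and 0.196 CPM in wild-type mice. Here healthy mouse 3 exceeded only sick mouse 1.

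Of the basal genes, Krt5 had 5.51, 4.68, 7.29 and 44.9 CPM in sick mice, 0, 0.525, 4.92 and 0.0568 CPM in healthy knock-in mice, and 0.162, 0.825, 0.173 and 0.0652 CPM in wild-type mice. Sick mouse 4 stood far above every other mouse, and healthy mouse 3 exceeded sick mouse 2 alone. Trp63, the basal transcription factor, had 3.37, 4.08, 2.53 and 13.4 CPM in sick mice, 0.508, 0.315, 2.58 and 0.397 CPM in healthy knock-in mice, and 0.728, 0.589, 0.347 and 0.261 CPM in wild-type mice. It had the smallest SD relative to its mean of the 8 genes in the healthy knock-in and wild-type groups, and healthy mouse 3 was just above the lowest sick mouse. Foxa1 had 1.91, 3.45, 2.0 and 12.6 CPM in sick mice, 0.191, 0.315, 2.75 and 0.114 CPM in healthy knock-in mice, and 0, 0.472, 0 and 0.0652 CPM in wild-type mice. Healthy mouse 3 exceeded sick mice 1 and 3, and 2 wild-type mice held no count.

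**Figure D1:**
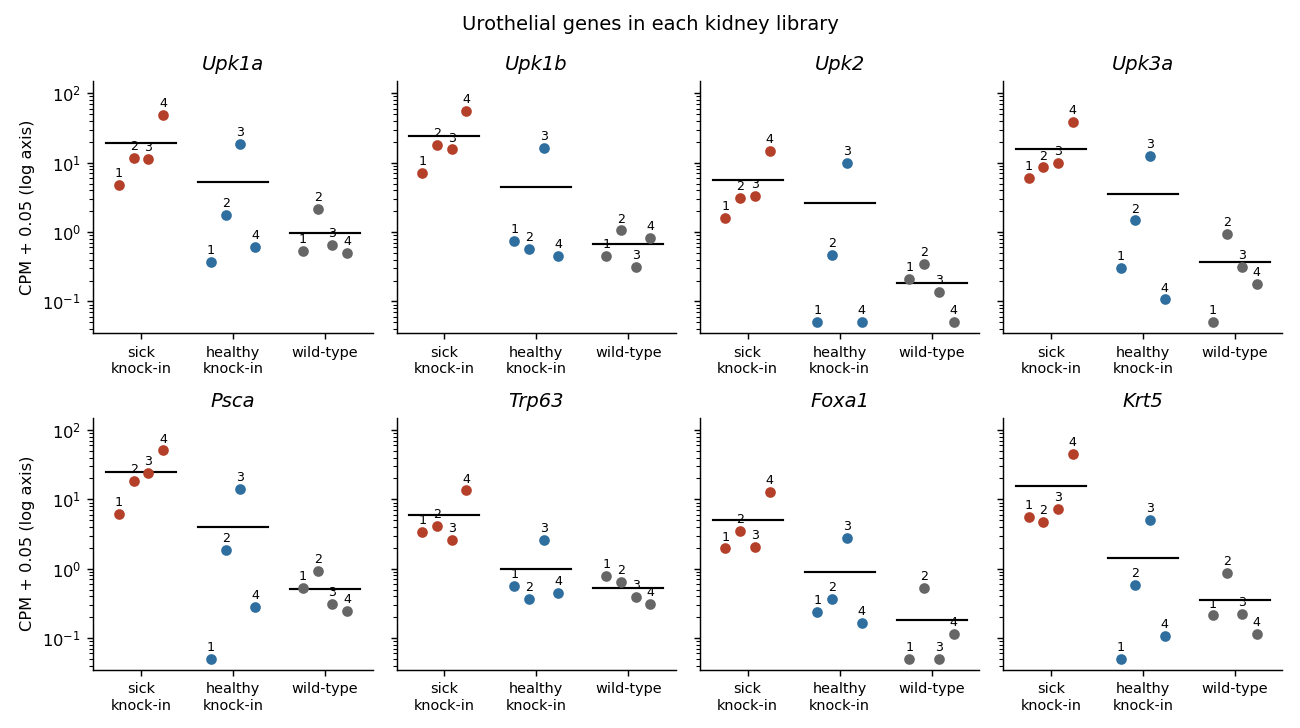
Level of each of the 8 genes in each library, as CPM + 0.05 on a log axis, for sick knock-in, healthy knock-in and wild-type mice; points carry the mouse number and bars are group means of 4 mice. Sick mouse 4 and healthy mouse 3 are the highest of their group for all 8 genes, and wild-type mouse 2 for 7 of 8.

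Per kilobase of exon, which allows levels of different genes to be set side by side, Psca was highest in sick mice at 28.8 ± 21.8 CPM per kb, followed by Upk3a at 14.3 ± 13.9, Upk1a at 13.3 ± 13.8 and Upk1b at 11.6 ± 10.4 (SD, n = 4). Krt5 followed at 7.10 ± 8.91, Upk2 at 5.17 ± 5.52, Foxa1 at 1.5 ± 1.54 and Trp63 at 0.695 ± 0.603 CPM per kb. The ranges over the 4 sick mice overlapped for every pair of neighbours in this order. In healthy knock-in mice Psca also led, at 4.66 ± 7.78 CPM per kb, while in wild-type mice Upk1a led at 0.646 ± 0.567 CPM per kb (SD, n = 4 each). The transcription factors Foxa1 and Trp63 were the lowest in all 3 groups.

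Sick and healthy knock-in mice share genotype and differ in state. All 8 genes had a higher mean in sick mice, and 3 passed the test, the transcription factors Trp63 and Foxa1 and the keratin Krt5. Over all genes tested, 24.5% were called higher in this comparison and 21.9% lower. With library totals in place of TMM the median log2 fold change of all genes shifted by 0.58 in sick against healthy knock-in mice and by 0.59 in sick knock-in against wild-type mice, and 55% and 54% of genes were called higher, 9.14% and 10.3% lower. The fold changes here are those under TMM, and each of the 8 genes was higher in sick mice under both. Krt5 rose 11.2-fold (log2 3.49 ± 1.14 SE, edgeR adjusted p = 0.0235), Trp63 6.12-fold (log2 2.61 ± 0.70, adjusted p = 0.00813) and Foxa1 5.88-fold (log2 2.56 ± 0.96, adjusted p = 0.0432). Psca, at a log2 fold change of 2.62 ± 1.05, had an edgeR adjusted p of 0.0571, and Upk1b, at 2.45 ± 1.01, one of 0.0634. The other uroplakins were further from the threshold, with log2 fold changes of 2.14 ± 1.07 for Upk3a (edgeR adjusted p = 0.121), 1.83 ± 1.04 for Upk1a (adjusted p = 0.166) and 1.11 ± 1.2 for Upk2 (adjusted p = 0.473). The 4 sick and 4 healthy libraries overlapped for all 8 genes, where 24% of all genes tested stood apart with the sick group higher.

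The overlap came from healthy mouse 3. Without that library the 4 sick mice stood above the other 3 healthy mice for all 8 genes and all 8 passed edgeR's test, at adjusted p of 0.000209 (Upk1b) to 0.00359 (Upk2). That library was the highest of its group for all 8 genes, so leaving it out lowered their healthy mean. The shares of all genes given above are for 4 against 4 libraries, and none is given for the fit without it. The difference was then 72.9-fold for Krt5, 44.1-fold for Upk1b, 35.6-fold for Upk2 and 14.1-fold for Trp63. Upk2 moved most, to a log2 fold change of 5.15 without healthy mouse 3, against 1.11 with it. Sick mouse 4 acted in the other direction. Without it Upk2 was level between sick and healthy knock-in mice, at a log2 fold change of 0.02, and of the 8 genes Trp63 alone was called, at 1.81 (edgeR adjusted p = 0.0336). Leaving out healthy mouse 1, 2 or 4 also left 1 call. DESeq2 called 1 of the 7 genes for which it gave an adjusted p, and limma-voom with library quality weights called all 8.

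**Figure D2:**
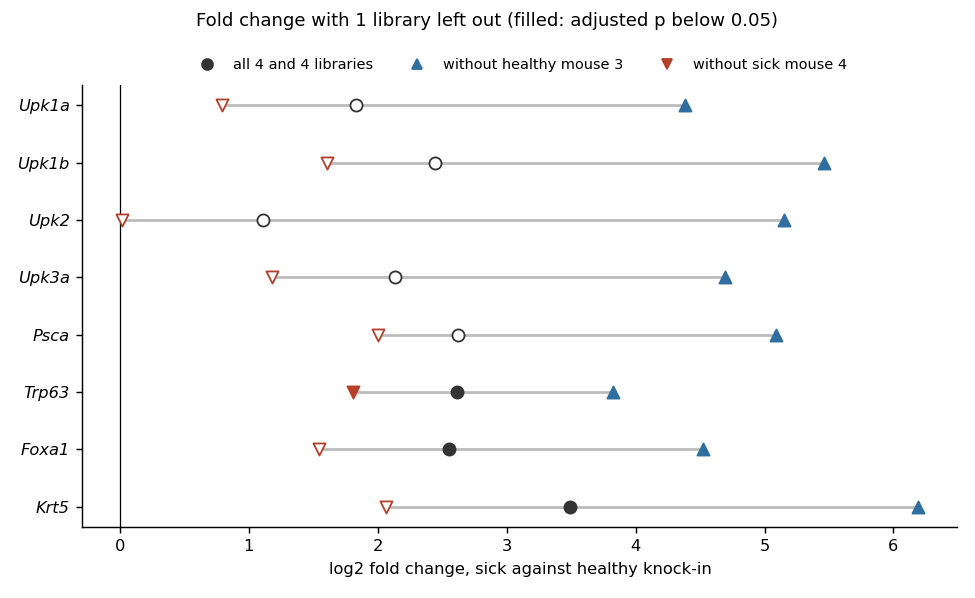
Log2 fold change of each gene for sick against healthy knock-in mice with all libraries (circles), without healthy mouse 3 (upward triangles) and without sick mouse 4 (downward triangles); filled symbols have an edgeR adjusted p below 0.05. All 8 triangles for healthy mouse 3 left out are filled and lie at 3.82 or more, and with sick mouse 4 left out the one of Trp63 alone is filled.

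Against wild-type mice the sick mice were higher for all 8 genes, and the groups overlapped for none of them. All 8 passed the test, where 25.9% of all genes tested were called higher and 22.7% stood apart with the sick group higher. The filter kept 7 of the 8 only with the sick libraries, so their calls could go in one direction only, which does not hold for all genes. Among the uroplakins Upk3a was 44.5-fold higher (log2 5.48 ± 1.38 SE, edgeR adjusted p = 0.00517), Upk2 37.8-fold (5.24 ± 1.67, adjusted p = 0.0193), Upk1b 37.3-fold (5.22 ± 1.23, adjusted p = 0.00346) and Upk1a 19.6-fold (4.30 ± 1.22, adjusted p = 0.0103). Both members of each plaque pair thus rose. Psca rose 51.7-fold (log2 5.69 ± 1.32, edgeR adjusted p = 0.00311). Krt5 rose 46.6-fold (5.54 ± 1.36, adjusted p = 0.00435), Foxa1 31.1-fold (4.96 ± 1.2, adjusted p = 0.00399) and Trp63 12-fold (3.58 ± 0.76, adjusted p = 0.00176). These folds rest on few wild-type counts, 8 over the 4 libraries for Upk2 and 9 for Foxa1, up to 56 for Upk1a. Without sick mouse 4 Upk2 lost its call (edgeR adjusted p = 0.0601) and the other 7 kept theirs, at log2 fold changes of 2.78 (Trp63) to 5.08 (Psca). Without wild-type mouse 2, which was highest of its group for 7 of the 8, all 8 were still called and the folds were 154-fold for Foxa1, 115-fold for Upk3a, 114-fold for Krt5, 78.1-fold for Psca, 65.9-fold for Upk2 and 36.1-fold for Upk1a.

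Healthy knock-in and wild-type mice differ in genotype and share the healthy state. None of the 8 genes passed in either direction, each with an edgeR adjusted p of 0.912, while 0.308% of all genes tested were called higher and 0.00641% lower. At an unadjusted p under 0.05 there were 4, Upk1b, Upk2, Upk3a and Psca, and DESeq2 and limma-voom called none. Log2 fold changes were 0.97 ± 0.79 (Trp63) to 4.13 ± 1.69 (Upk2). None of the 8 stood apart between the groups, against 2.17% of genes with the healthy knock-in group higher and 1.8% with it lower. These fold changes, too, were set by healthy mouse 3. Without it they lay between -0.65 (Krt5) and 0.78 (Upk3a), below 0 for Upk1a, Upk1b, Trp63 and Krt5.

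**Figure D3:**
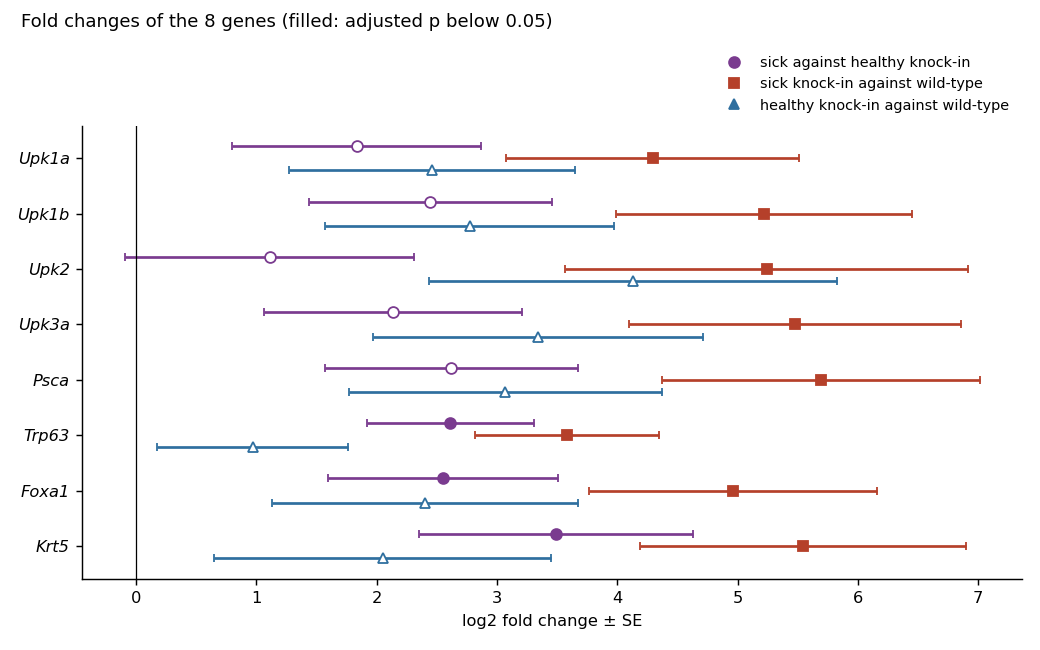
Log2 fold change with its SE for the 8 genes in sick against healthy knock-in (circles), sick knock-in against wild-type (squares) and healthy knock-in against wild-type mice (triangles); filled symbols have an edgeR adjusted p below 0.05. All 8 squares are filled, 3 circles are (Trp63, Foxa1 and Krt5) and no triangle is.

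The comparisons share groups, so their fold changes are not independent of each other. All 8 genes reached the count filter, which asks for 4 libraries over 0.548 CPM before TMM. In sick mice 4 of 4 libraries were over that level for each gene, and in healthy knock-in and wild-type mice at most 2. Counted at that level, 7 of the 8 reached 4 libraries only with the sick mice, so their calls could go in one direction only, and Upk1b is the exception. A fit of the healthy knock-in and wild-type libraries alone set its own level, which Upk1a and Upk1b reached and the other 6 did not. The median log2 fold change of the 8 genes was 2.5 in sick against healthy knock-in mice, 5.23 in sick mice set against wild-type and 2.62 in healthy knock-in mice set against wild-type, where the median of all genes tested was 0.05, 0.02 and -0.01.

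The authors' deposited table gives log2 fold changes of its own. In sick against healthy knock-in mice the authors' deposited table has an adjusted p below 0.05 for 1 of the 8 genes, Trp63 (log2 fold change 2.16, adjusted p = 0.0199). In sick knock-in against wild-type mice the authors' deposited table has 5 below 0.05, Upk1a (0.0279), Upk1b (0.00215), Psca (0.0116), Trp63 (0.000245) and Foxa1 (0.0161), and gives Upk2 an adjusted p of 0.472. For healthy knock-in mice set against wild-type the authors' deposited table has none, and it gives no adjusted p for Upk3a or Krt5 in any comparison. The share of all genes below 0.05 in that table is not given here, so these counts cannot be read against it.

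Within groups the 8 genes went up and down together. Over the 28 pairs of genes, the correlation of log2(CPM + 0.1) deviations from the group means in the 12 libraries was 0.669 (Upk3a with Trp63) to 0.97, with a median of 0.891. The 12 points share their libraries and rest heavily on sick mouse 4, healthy mouse 3 and wild-type mouse 2, so these values are descriptions. Sick mouse 4 was the highest of its group for 8 of 8 genes, healthy mouse 3 for 8 of 8, and wild-type mouse 2 for 7 of 8, with wild-type mouse 1 highest for Trp63. Summed over the 8 genes, the level was 36.0, 72.0, 75.5 and 278 CPM in sick mice, 1.97, 7.09, 81.0 and 1.82 CPM in healthy knock-in mice, and 2.43, 7.07, 1.99 and 1.96 CPM in wild-type mice. Healthy mouse 3 thus exceeded 3 of the 4 sick mice in this sum, and healthy mouse 2 and wild-type mouse 2 stood above the other mice of their groups at about the same level.

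Among 14274 genes with a mean of at least 1 CPM, those whose deviations were most like the mean deviation of the 4 uroplakins, by Pearson correlation over 12 libraries, were Capn13 at 0.983, Sptssb at 0.982, Gsdmc2 at 0.979, 4921508A21Rik at 0.967 and Krt15 at 0.963. Capn13 is a calpain, Sptssb a small subunit of the enzyme that opens sphingolipid synthesis, Gsdmc2 a gasdermin and Krt15 a basal keratin. Sptssb had 2.39, 6.08, 7.83 and 33.4 CPM in sick mice, 0, 0.210, 7.27 and 0 CPM in healthy knock-in mice, and 0.0809, 0.354, 0.173 and 0 CPM in wild-type mice. Krt15 had 3.93, 3.72, 9.44 and 18.2 CPM in sick mice, 0, 0.157, 7.10 and 0 CPM in healthy knock-in mice, and 0, 0.589, 0.0867 and 0 CPM in wild-type mice. For both, healthy mouse 3 was inside the sick range, as for the uroplakins. 4921508A21Rik was alike only within groups, since it was lower in sick mice, at 0.324 to 0.668 CPM, than in healthy knock-in mice at 0.795 to 3.43 CPM and wild-type mice at 1.56 to 1.95 CPM.

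**Figure D4:**
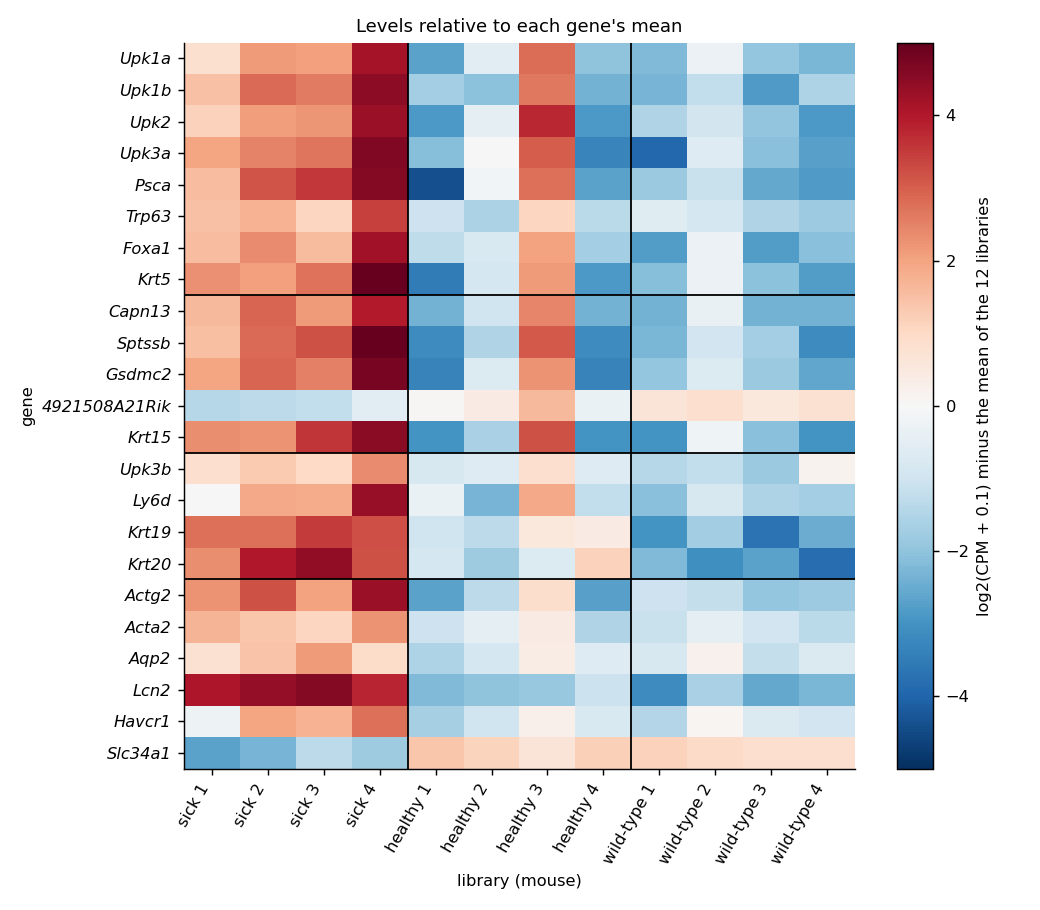
Log2(CPM + 0.1) of each gene minus its mean over the 12 libraries, with columns for sick, healthy knock-in and wild-type mice and blocks from top to bottom for the 8 genes, the 5 genes most like the uroplakins, other genes known from urothelium, and smooth muscle (Actg2, Acta2), collecting duct (Aqp2), injury (Lcn2, Havcr1) and proximal tubule (Slc34a1) genes. The column of healthy mouse 3 is high in the 8 genes and the 5 like them. Of the injury genes, Havcr1 is highest of its group in healthy mouse 3, at 50.8 CPM, and Lcn2 is not, at 4.29 CPM.

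The makeup of the urothelial signal was set out in the libraries that held enough of it. Of the counts of the 8 genes, the basal genes Krt5 and Trp63 made up 24.7% in sick mouse 1 (95% Clopper-Pearson interval 21.9 to 27.6), 12.2% in sick mouse 2 (10.8 to 13.6), 13% in sick mouse 3 (11 to 15.3) and 21% in sick mouse 4 (19.9 to 22.1). The share was 9.25% in healthy mouse 3 (7.79 to 10.9), 11.9% in healthy mouse 2 (6.93 to 18.5) and 20% in wild-type mouse 2 (13.3 to 28.3). Sick mice 1 and 4 were higher than sick mice 2 and 3, and of the sick mice only mouse 2 had an interval that met that of healthy mouse 3. The interval of healthy mouse 3 lay within the wide one of healthy mouse 2. The 4 uroplakins made up 53% in sick mouse 1, 57.4% in sick mouse 2, 52.5% in sick mouse 3 and 56.3% in sick mouse 4, and 70.1% in healthy mouse 3 (67.7 to 72.5). It was 57.8% in healthy mouse 2 (49 to 66.2) and 60.8% in wild-type mouse 2 (51.5 to 69.6). The intervals of the sick mice, from 49.4 to 59.5, lay below that of healthy mouse 3, while that of healthy mouse 2 overlapped them and that of wild-type mouse 2 overlapped both. The remaining 5 libraries held 23 to 32 counts of the 8 genes, too few for a share. Intervals cover counting error only, and set these libraries against each other, not the conditions.

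Among the uroplakins themselves, by level per kilobase, Upk2 made up 10.6%, 10.3%, 11.2% and 12.3% in sick mice 1 to 4, and 22.2% in healthy mouse 3. Upk1b made up 25%, 31.4%, 27.1% and 24.6% in sick mice and 18.6% in healthy mouse 3. Healthy mouse 3 lay outside the range of the 4 sick mice for both genes, higher for Upk2 and lower for Upk1b. Upk3a made up 28.2% to 40% in sick mice and 27.6% in healthy mouse 3, and Upk1a 24.4% to 30.9% in sick mice and 31.6% in healthy mouse 3. For these genes too healthy mouse 3 lay outside the sick range, by a small margin. With 1 healthy library of this depth these differences have no replicate check.

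**Figure D5:**
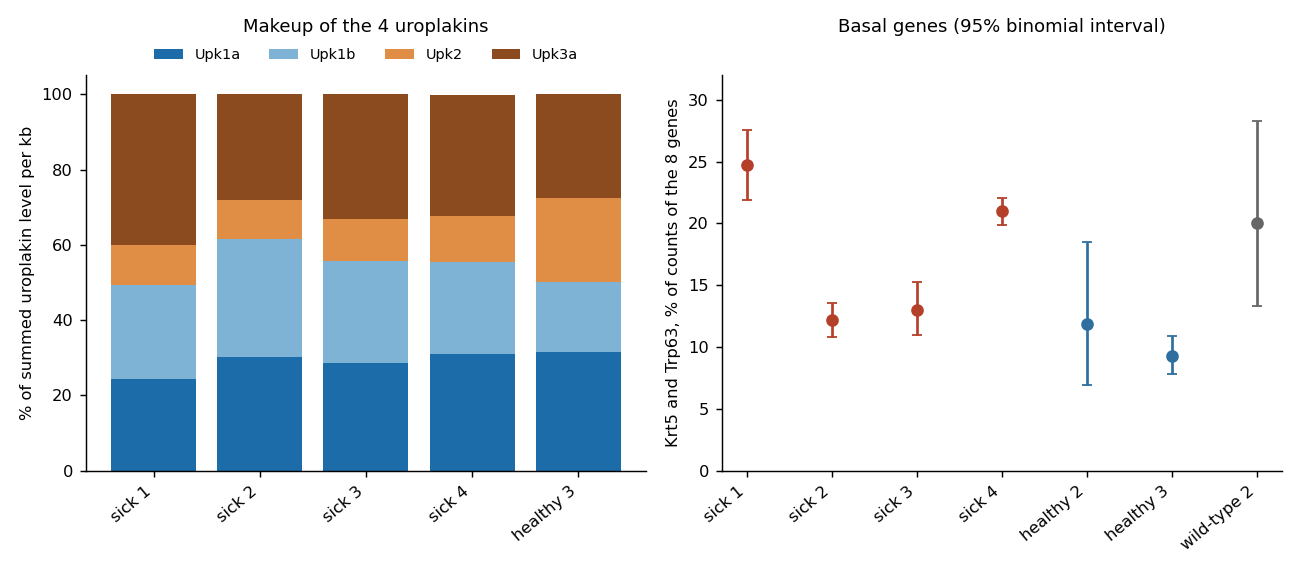
Left, share of each uroplakin in the summed uroplakin level per kilobase, in % of that sum, for the 4 sick mice and healthy mouse 3; right, share of Krt5 and Trp63 in the counts of the 8 genes, in %, for the libraries with at least 100 such counts, with 95% binomial intervals. Upk2 takes 22.2% in healthy mouse 3 and at most 12.3% in a sick mouse.

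Other genes known from urothelium and from neighbouring tissue were followed as lists. The shares to read them against are 24.5% of all genes tested called higher and 21.9% lower in sick against healthy knock-in mice, and 25.9% and 25% in sick knock-in against wild-type mice. Under library totals 55% and 54% were called higher. Of the listed genes named with a test, Upk3bl, Krt20, Krt14, Krt15, Col17a1, Ly6d, Lypd3 and Actg2 entered the test only with the sick libraries. Their calls could thus go in one direction only, and the counts of their lists hold them. A list of 15 held genes of the uroplakin plaque and of its traffic, the 4 uroplakins included. In sick against healthy knock-in mice 5 of 15 were called higher and 3 lower, at a median log2 fold change of 1.11. Upk3bl, a relative of Upk3a, rose 9.26-fold to 1.23 ± 0.594 CPM in sick mice, against 0.124 ± 0.0956 CPM in healthy knock-in mice (edgeR adjusted p = 0.000361). It did not go with the uroplakins within groups (Pearson -0.115 with their mean deviation over 12 libraries). Sick mouse 4 had the lowest Upk3bl of the sick mice, at 0.514 CPM, and healthy mouse 3 had 0.114 CPM. Sytl2 and Rab27b, partners in the docking of vesicles, rose 7.82-fold and 3.67-fold (edgeR adjusted p = 6.04e-06 and 0.00229). Upk3b, a uroplakin that mesothelium also expresses, rose 3.18-fold (edgeR adjusted p = 0.0184). The 3 genes called lower were Snap23, Vps33a and Myo5b, general genes of membrane traffic that were named after their values were seen. None of the 3 was called under library totals, where Snap23 and Vps33a turned positive at log2 fold changes of 0.15 and 0.21. In sick knock-in against wild-type mice 9 of 15 were higher and 4 lower, and under library totals none of the 15 was lower.

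Of 14 tested transcription factors known from urothelium, Trp63 and Foxa1 included, 11 were called higher and 2 lower in sick against healthy knock-in mice, at a median log2 fold change of 1.54. Pparg, a nuclear receptor of urothelial differentiation, rose 5.92-fold to 11.3 ± 10.1 CPM in sick mice, against 1.89 ± 0.973 CPM in healthy knock-in mice (edgeR adjusted p = 0.00473). The Krüppel-like factors Klf4 and Klf5 rose 5.45-fold and 5.17-fold and the epithelial factor Ehf 3.32-fold (edgeR adjusted p = 3.57e-06, 0.000174 and 0.00011). For Klf4, Klf5 and Ehf healthy mouse 3 did not reach the sick range, and the groups stood apart. Rxra, the partner receptor of Pparg, and Ovol1 were the 2 called lower and were named after their values were seen, and neither was called under library totals. In sick knock-in against wild-type mice 12 of 14 were higher and 2 lower.

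Of 8 tested urothelial keratins, Krt5 included, 6 were higher in sick against healthy knock-in mice and 0 lower, with a median log2 fold change of 2.37, and all 8 were higher in sick knock-in against wild-type mice. Of these keratins 4, Krt5, Krt14, Krt15 and Krt20, entered the test only with the sick libraries. Krt20, a keratin of umbrella cells that injured tubules also express, had 11.6, 36.9, 49.3 and 20.6 CPM in sick mice, 1.14, 0.577, 1.32 and 5.0 CPM in healthy knock-in mice, and 0.405, 0.177, 0.260 and 0.0652 CPM in wild-type mice. It did not go with the uroplakins within groups, since sick mouse 3 and healthy mouse 4 were highest (Pearson -0.192 with the mean uroplakin deviation over 12 libraries). Krt19 rose 9.42-fold, Krt18 4.25-fold and Krt7 2.57-fold (edgeR adjusted p = 9.76e-05, 0.000428 and 0.00123), and these simple keratins are also made by collecting duct or injured tubule. The 2 keratins not called, Krt14 and Krt15, both basal, had log2 fold changes of 2.47 and 2.27 (edgeR adjusted p = 0.0887 and 0.14). Krt6a was at 0 in every library, and Krt13 and Krt4 stayed below 0.5 CPM in all 12. Krt17, also not tested, had 5.23, 0.332, 1.53 and 1.80 CPM in sick mice, and at most 0.0652 CPM in the healthy knock-in and wild-type mice. Its highest sick mouse was mouse 1, and healthy mouse 3 was at 0.0572 CPM.

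Genes of basal epithelium, Krt5 and Trp63 included, showed 7 of 14 tested higher and 0 lower in sick against healthy knock-in mice, at a median log2 fold change of 2.29, and 9 of 14 higher in sick knock-in against wild-type mice. Cd44, a hyaluronan receptor, rose 8.61-fold, the collagen Col17a1 5.47-fold, the laminin chain Lamb3 5.03-fold and the integrin chain Itgb4 4.99-fold (edgeR adjusted p = 0.00011, 0.00112, 8.15e-05 and 5.08e-06). For each of them the groups stood apart, as for 24% of all genes. Their Pearson correlations with the mean uroplakin deviation over 12 libraries were -0.276, 0.297, 0.673 and -0.16. Of the 7 genes not called, Lama3, Itga6 and Perp had log2 fold changes of -1.41, -0.31 and -0.22. The others not called had positive ones. The desmosomal cadherins Dsg3 and Dsc3 stayed below 0.5 CPM in all 12 libraries. In the Ly6 family, Psca included, 4 of 10 tested were higher and 0 lower, with a median of 0.92, and 5 of 10 were higher against wild-type mice. Under library totals these counts were 9 of 10 and 7 of 10, where 55% and 54% of all genes were called higher. Ly6d, an epithelial member, had 1.74, 6.67, 6.52 and 37.2 CPM in sick mice, 1.33, 0.262, 6.58 and 0.681 CPM in healthy knock-in mice, and 0.324, 0.943, 0.520 and 0.457 CPM in wild-type mice (edgeR adjusted p = 0.0418 in sick against healthy knock-in mice). Healthy mouse 3 was again inside the sick range. Lypd3 rose 10.7-fold, Lypd1 2.10-fold and Lynx1 1.71-fold (edgeR adjusted p = 0.00432, 0.0226 and 0.0233).

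Of the lists for tissue that lies next to urothelium, that of visceral smooth muscle moved with these genes within groups. Pearson correlations of its genes with the mean uroplakin deviation were 0.373 to 0.923 over 12 libraries. For collecting duct genes they were mixed, between -0.641 (Scnn1g) and 0.719 (Fxyd4). Visceral smooth muscle genes had a summed level of 966, 767, 632 and 1353 CPM in sick mice, 228, 307, 442 and 209 CPM in healthy knock-in mice, and 227, 312, 238 and 196 CPM in wild-type mice. The highest mouse of each group in this sum was again sick mouse 4, healthy mouse 3 and wild-type mouse 2. In sick mice Acta2 at 186 to 419 CPM and Tagln at 200 to 404 CPM carried most of the sum. Which cells made these transcripts cannot be told from RNA of a whole organ. All 9 genes of the list were detected, and 6 of 9 were higher in sick against healthy knock-in mice and 8 of 9 in sick knock-in against wild-type mice, with medians of 1.61 and 1.98. Actg2, the actin of visceral smooth muscle, had 4.78, 9.30, 4.07 and 20.5 CPM in sick mice, 0.0635, 0.315, 1.77 and 0.0568 CPM in healthy knock-in mice, and 0.405, 0.354, 0.173 and 0.196 CPM in wild-type mice. It rose 17.2-fold in sick against healthy knock-in mice (edgeR adjusted p = 0.0013) and was highest in sick mouse 4 and healthy mouse 3 of their groups, although healthy mouse 3 stayed below every sick mouse. Tagln, Cnn1 and Acta2, contractile genes, rose 4.85-fold, 4.68-fold and 4.41-fold (edgeR adjusted p = 9.12e-05, 0.0108 and 0.000662).

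Collecting duct genes summed to 590 to 1297 CPM in sick mice, 351, 406, 596 and 369 CPM in healthy knock-in mice 1 to 4, and 386 to 544 CPM in wild-type mice. Healthy mouse 3 led its group and wild-type mouse 2 its own, but sick mouse 4 had the lowest sum of the sick mice. In sick against healthy knock-in mice, where 24.5% of all genes were called higher, 4 of 10 collecting duct genes were higher and 0 lower, with a median of 0.66. They were the water channel Aqp2 (3.79-fold, edgeR adjusted p = 0.00326), the factor Elf5 (3.5-fold, 0.00296), Fxyd4 (2.09-fold, 0.0264) and the sodium channel chain Scnn1b (1.66-fold, 0.00954). Against wild-type mice 4 of 10 were higher too. Under library totals 10 of 10 were higher in sick against healthy knock-in mice, where 55% of all genes were. Of 9 tested genes of inner medulla and papilla 1 was higher, the tonicity factor Nfat5 (1.70-fold, edgeR adjusted p = 0.0398), and 2 lower, Fxyd2 and Aqp1 (2.33-fold and 2.01-fold lower, edgeR adjusted p = 0.00946 and 0.00103), neither called under library totals. Their summed level was 1448 to 2250 CPM in sick, 2588 to 2941 CPM in healthy knock-in and 2738 to 3788 CPM in wild-type mice. Fxyd2 and Aqp1, which other tubule segments also express, carried most of that sum in healthy knock-in and wild-type mice. Without them it was 766 to 1312 CPM in sick, 682 to 780 CPM in healthy knock-in and 511 to 946 CPM in wild-type mice, so the groups overlapped. The part of these tissues in the levels of the 8 genes was not tested.

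Mesothelium covers the kidney surface and expresses Upk1b and Upk3b. Of 8 tested mesothelial genes, Upk1b included, 4 were higher and 1 lower in sick against healthy knock-in mice, at a median of 1.42, and 5 higher and 1 lower against wild-type mice. Without Upk1b the list summed to 103 to 158 CPM in sick, 137 to 214 CPM in healthy knock-in and 178 to 213 CPM in wild-type mice, most of it Gpm6a in the healthy and wild-type libraries. Without Gpm6a too, the order turned, with 53.0 to 120 CPM in sick, 20.03 to 24.3 CPM in healthy knock-in and 10.2 to 17.0 CPM in wild-type mice. The largest part of this remaining sum in sick mice was 1 gene, Aldh1a2, at 25.0 to 78.9 CPM. Msln, a surface protein of mesothelium, had 6.08, 4.58, 4.99 and 2.78 CPM in sick mice, 1.33, 0.840, 0.744 and 1.02 CPM in healthy knock-in mice, and 0.566, 0.354, 0.173 and 1.83 CPM in wild-type mice. It rose 4.67-fold (edgeR adjusted p = 0.00302), yet sick mouse 4 and healthy mouse 3, highest for the 8 genes, had the lowest Msln of their groups. Aldh1a2 rose 6.13-fold and Gpm6a was 3.14-fold lower (edgeR adjusted p = 9.05e-05 and 5.26e-05), and Muc16 and Bnc1 stayed below 0.5 CPM in every library.

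Epidermis and the male accessory glands are other sites where Krt5 and Trp63 are known to be expressed. Of 8 epidermal genes 5, Krt1, Krt2, Flg, Krtdap and Dsg1a, stayed below 0.5 CPM in all 12 libraries, and the 1 gene tested, Krt10, was 2.67-fold lower in sick against healthy knock-in mice (edgeR adjusted p = 0.000101). Their summed level was 3.62 to 6.06 CPM in sick, 8.58 to 9.77 CPM in healthy knock-in and 9.33 to 14.0 CPM in wild-type mice. Of 9 genes of the accessory glands 6, Pbsn, Svs2, Svs4, Svs5, Msmb and Hoxb13, had no count in any library. Of the 2 tested, Spink1, which kidney also expresses, was 2.83-fold lower in sick against healthy knock-in mice (edgeR adjusted p = 0.00381).

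Tubule genes also differed in the sick mice. All 8 proximal tubule genes were lower in sick against healthy knock-in mice, at a median of -2.63, and against wild-type mice, with a median of -2.58. Under library totals 7 of 8 were lower in sick against healthy knock-in mice, all but Aqp1. Slc5a2, a glucose carrier, was 9.43-fold lower, Slc34a1 8.20-fold, the endocytic receptor Lrp2 7.78-fold and the anion carrier Slc22a6 7.32-fold in sick against healthy knock-in mice (edgeR adjusted p = 2.9e-06, 1.27e-05, 8.83e-06 and 0.000178). All 8 genes of tubular injury were higher, with medians of 2.99 and 3.60 in the 2 comparisons. The groups stood apart for 7 of these 8 in each comparison, and overlapped for Havcr1. Of all genes tested, 24% and 22.7% stood apart with the sick group higher. Lcn2, a secreted iron-siderophore carrier, had 270, 350, 391 and 228 CPM in sick mice, 3.43, 3.94, 4.29 and 7.67 CPM in healthy knock-in mice, and 1.78, 5.25, 2.69 and 3.26 CPM in wild-type mice. Sick mouse 4, highest for the 8 urothelial genes, had the lowest Lcn2 of the sick mice, and healthy mouse 3 was within 1 CPM of healthy mice 1 and 2. Havcr1, another injury gene of the proximal tubule, named after its values were seen, had 35.2, 165, 142 and 283 CPM in sick mice, 13.4, 21.4, 50.8 and 24.6 CPM in healthy knock-in mice, and 15.4, 45.1, 25.6 and 21.9 CPM in wild-type mice. Its highest mice were sick mouse 4, healthy mouse 3 and wild-type mouse 2, the same as for the uroplakins. Over the 8 injury genes the correlation with the mean uroplakin deviation ran between -0.55 (Clu) and 0.747 (Havcr1) over 12 libraries, and the part of injury in the levels of the 8 urothelial genes was not tested. Spp1 rose 18.3-fold and Sox9 9.63-fold in sick against healthy knock-in mice (edgeR adjusted p = 1.53e-06 and 5.39e-06). In healthy knock-in against wild-type mice edgeR called no gene of any list named here under TMM.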

How the data were processed

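The kidneys of 12 mice were measured. Per the labels' protocols, RNA was prepared with a miRvana kit and DNase, and Trueseq was used for the libraries. Per the submitters' processing notes, the tools were TopHat2 2.0.11, Trim Galore 0.3.7, DESeq2 1.12.4 and Cufflinks, and the build GRCm38. What program counted the reads, on which annotation and whether by strand, were not given in the sources used here. Per the file headers, the authors' table holds raw counts per Ensembl gene and library, and their log2 fold changes and adjusted p-values, copied as they stand. The authors' deposited table has no fold changes for 18391 genes. Its 12 columns of normalized counts per library were not used.

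The tool for the counts was edgeR 4.0.16 (R 4.3.3). The filter was filterByExpr by group with a minimum count of 10, scaling was TMM, and the quasi-likelihood fit took all 12 libraries with a mean for each group. The common biological coefficient of variation was 0.270. Exon lengths and positions came from a GENCODE annotation of GRCm38. Library totals stand with the results. No 2 libraries of a group agreed within sampling noise.

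The 8 genes, the other lists, the alternatives and the rule for named genes were chosen with earlier results of these data known. Up to 4 genes of each list were named, those with the largest changes among the genes called in sick against healthy knock-in mice, along with the 5 genes most like the uroplakins. Krt14, Krt17, Havcr1, Clu, Scnn1g, Slc14a2, Snx31, Snap23, Vps33a, Myo5b, Rxra, Ovol1, Lama3, Itga6, Perp and the genes at or near 0 fall outside that rule and were named after their values were seen. The test was checked on simulated data, drawn with the same coefficient of variation for all genes and with no change in low-count genes. That check does not cover genes with counts as low, or a spread as wide, as those of the 8 genes. Alternatives were DESeq2 1.42.0 and its size factors, limma-voom (limma 3.58.1), other scalings and filters, a threshold of 0.01, fits of 2 groups alone, a block by replicate number, and each library left out in turn.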

Additional observations from a re-analysis of the deposited data

Results flagged for a closer look

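In 17 of 24 sets of 4 libraries (8 genes in 3 groups) the highest library stood apart from the nearest one by more of the group's range than Dixon's 95% critical value for 4 samples. By chance about 1 in 20 such sets is given for values with a normal distribution. The gaps were taken on CPM and not on a log scale, and every one was at the highest library, so that rate may not hold here. The 8 genes also share their libraries and are not 8 independent checks. In sick mice the library was that of mouse 4, with a gap of 0.835 of the range for Upk1a, 0.864 for Upk2, 0.878 for Upk3a, 0.857 for Trp63, 0.855 for Foxa1 and 0.935 for Krt5. Upk1b and Psca in sick mice stayed under the critical value. In healthy knock-in mice it was that of mouse 3 for all 8 genes, with 0.922 for Upk1a, 0.981 for Upk1b, 0.958 for Upk2, 0.89 for Upk3a, 0.868 for Psca, 0.914 for Trp63, 0.924 for Foxa1 and 0.893 for Krt5. In wild-type mice it was that of mouse 2, with 0.91 for Upk1a, 0.862 for Foxa1 and 0.858 for Krt5. The levels of smooth muscle genes in these libraries stand beside the results, and their part was not tested.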

How the results depend on the processing

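In sick knock-in against wild-type mice 8 genes were called higher under every setting tried but 3, 6 at a threshold of 0.01, 7 of 7 with DESeq2, which gave Krt5 no adjusted p, and 7 without sick mouse 4. In healthy knock-in against wild-type mice none was called under any setting tried. In sick against healthy knock-in mice the 3 calls became 1 at a threshold of 0.01, 6 with library totals alone in place of TMM, 1 with DESeq2 and 8 with limma-voom, and ranged between 1 and 8 as each library was left out, with Trp63 called throughout. The count of genes whose 4 sick and 4 healthy libraries stand apart was 0, became 2 with library totals alone, and ranged between 0 and 8 as each library was left out. In healthy knock-in against wild-type mice that count ranged between 0 and 1. Leaving out each library, the log2 fold change in healthy knock-in against wild-type mice ranged between -0.10 and 3.35 for Upk1a, -0.25 and 3.17 for Upk1b, -0.25 and 1.28 for Trp63 and -0.65 and 3.36 for Krt5, with the negative value in each case without healthy mouse 3. With the 8 libraries of that comparison alone, 6 of the 8 genes did not reach the filter. With the replicate number as a block 4 genes were called in sick against healthy knock-in mice, 8 against wild-type mice and 0 in healthy knock-in against wild-type mice. Correlations of same-numbered libraries were -0.258 to 0.241, so the numbers were not taken to pair the mice. At 8 to 56 counts per gene over the 4 wild-type libraries, folds against them have wide errors.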

Other observations

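Snx31, a sorting nexin known to bind uroplakins, followed them in part (Pearson 0.529 with the mean uroplakin deviation over 12 libraries). It had 2.47, 5.74, 4.37 and 21.2 CPM in sick mice, 0, 21.9, 22.3 and 0 CPM in healthy knock-in mice, and 17.6, 0.825, 0 and 42.3 CPM in wild-type mice. Sick mouse 4 and healthy mouse 3 were the highest of their groups, as for the uroplakins, healthy mouse 2 was level with healthy mouse 3, and the wild-type mice were in another order. The 3 libraries without a single count and the highest library all came from mice classed as healthy. The edgeR adjusted p was 0.849 in sick against healthy knock-in mice and 0.659 in sick knock-in against wild-type mice.

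Slc14a2, the urea carrier of the inner medulla, had 108, 17.9, 34.0 and 13.5 CPM in sick mice, 0, 15.1, 21.1 and 0 CPM in healthy knock-in mice, and 4.61, 12.3, 1.82 and 2.61 CPM in wild-type mice. Healthy mice 1 and 4, without a count of it, also held no Upk2, and wild-type mouse 2 was the highest of its group, whereas sick mouse 4 was the lowest of the sick mice.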
